A study of Mus musculus with 12 samples.

Results

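The response of Beko cells, a line of mouse pre-T cells, to blocking Notch was set against their response to losing Hdac3, to find the genes that the 2 treatments moved in opposite directions. The comparison used 8 of the 12 libraries of the series, in 4 groups of 2. Cells had been treated for 24 h with DAPT at 10 µg/ml, or with DMSO as its control. DAPT (a GSI) inhibits γ-secretase, a protease needed for Notch signalling. In the other experiment cells were infected with plasmids for a short hairpin RNA against Hdac3 (shHdac3, 1 hairpin named Sh1 in the labels) or a scrambled hairpin, and were taken 96 h after puromycin was added. The quantity examined is a difference of differences, the DAPT change minus the knockdown change, on log2(value + 1) of the normalized reads. Only genes that reached 10 in 2 libraries or more of each experiment were tested, 12388 of 23366 gene symbols. Drug against hairpin, 24 h against 96 h, and uninfected against infected and puromycin-selected cells differ together between the experiments and cannot be told apart here.

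Notch receptors are cut by γ-secretase after they bind a ligand, and the freed intracellular domain enters the nucleus and turns on target genes with the DNA-binding protein RBPJ. In early thymocytes this signal sustains growth and pre-T cell receptor expression, and Myc, a transcription factor that drives ribosome production and biosynthesis, is one of its best known targets. HDAC3 is a class I histone deacetylase that works as the enzyme of the NCoR and SMRT corepressor complexes, which nuclear receptors and other repressors bring to DNA.

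Reads assigned to genes numbered 37237080 to 42815304 per library in the DAPT experiment and 24673559 to 29004315 in the hairpin experiment, and replicates correlated with r of 0.995 to 0.997 across the genes tested. Hdac3 stood at 774 and 819 normalized reads with the hairpin and 2012 and 1930.1 with the scrambled one, a change of -1.31 ± 0.046 (limma adjusted p = 1.1e-15), against -0.081 ± 0.046 with DAPT (adjusted p = 0.17). All 16 pre-T cell markers looked at, among them Cd3e, Lck and Rag1, were measured, and their summed level was 223934 to 226032 with DAPT, 249130 to 252020 with DMSO, 146634 to 148192 with shHdac3 and 184108 to 184312 with the scrambled hairpin. The sum hides moves in both directions. With DAPT Ptcra stood at 1531 and 1586 against 7897 and 7696 with DMSO, and Gata3 at 3575 and 3598 against 2106 and 2169. With shHdac3 Ptcra stood at 2913 and 2956 against 6980 and 6765 with the scrambled hairpin, and Cd2 at 1955 and 1978 against 1625 and 1555. Of the markers of other cells, 0 of 6 for B cells, 1 of 6 for myeloid cells, and 1 of 4 each for mast cells, erythroid cells and NK cells passed the filter. The mast cell marker Cpa3 stood at 1314 and 1262 with DAPT against 302 and 272 with DMSO and at 2396 and 2392 with shHdac3 against 981 and 924, while the 3 other mast cell markers stayed under 10 in every library. The myeloid marker Itgam stood at 526 and 451 with DAPT against 235 and 239. With shHdac3 it stood at 389 and 361 against 349 and 382, ranges that overlapped. The part of these cells in the results was not tested, and in these bulk libraries fewer cells of a type and less RNA per cell cannot be told apart. The labels do not say whether the 2 libraries of a group came from separate cultures, and the p-values then reflect only library-to-library spread, possibly of technical origin.

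Among the gene lists examined, those of ribosome production and biosynthesis had the largest shares of members that DAPT lowered and the hairpin raised, and those of histone deacetylase inhibitor markers, immediate early genes, G1 genes and p53 targets had the largest shares, among the lists described, of members that DAPT raised and the hairpin lowered. The latter lists share members, with Cdkn1a in those of markers, G1 genes and p53 targets. Of their members with that pattern, 3 of 6 markers and 3 of 7 immediate early genes kept it in all 19 alternative settings tried. So did 2 of 7 G1 genes and 3 of 6 p53 targets. Of 12388 genes tested, 1154 fell after DAPT and rose after Hdac3 knockdown, with an adjusted p under 0.05 for both changes and for their difference (9.32% of all genes tested). The reverse, higher after DAPT and lower after knockdown, held for 688 genes (5.55%). Changes in the same direction were called for 515 genes higher in both (4.16%) and 428 genes lower in both (3.45%). The 1154 genes were 42.3% of those that DAPT lowered and 39.2% of those that the hairpin raised. The 688 genes were 30.8% of those that DAPT raised and 26.9% of those that the hairpin lowered. Across all genes tested the changes had a Pearson r of -0.056 and a Spearman rho of -0.17, a description of these libraries, since genes are not independent replicates. DAPT raised 18.1% and lowered 22% of all genes tested, and the hairpin raised 23.8% and lowered 20.7%. The difference of responses itself was called for 5863 genes (47.3%), 2742 positive (22.1%) and 3121 negative (25.2%).

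Most opposite changes were small. In the set lowered by DAPT the median change was -0.27 after DAPT and 0.25 after knockdown, and in the set raised by DAPT it was 0.36 and -0.37. Both changes were 0.5 or more in size for 14 genes lowered by DAPT (0.113% of genes tested) and for 135 raised by it (1.09%). Treated libraries lay apart from their controls in both experiments for 1150 of the 1154 genes and for 686 of the 688, against 51.0% of all genes tested. The choice of the sets by these same libraries nearly fixes that separation, which holds also for the single genes below and is given for them as a description only. The sizes of the sets depended on scaling: with upper-quartile factors in place of the authors' size factors the set raised by DAPT grew to 1004 genes and the set lowered by it shrank to 841, and the positive share of the differences called went from 46.8% to 59.6%. With DESeq2 on the recovered reads the set raised by DAPT held 434 genes. Taking the adjusted p-values of the authors' deposited tables for both experiments gave 327 genes raised by DAPT and 659 lowered by it.

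**Figure D1:**
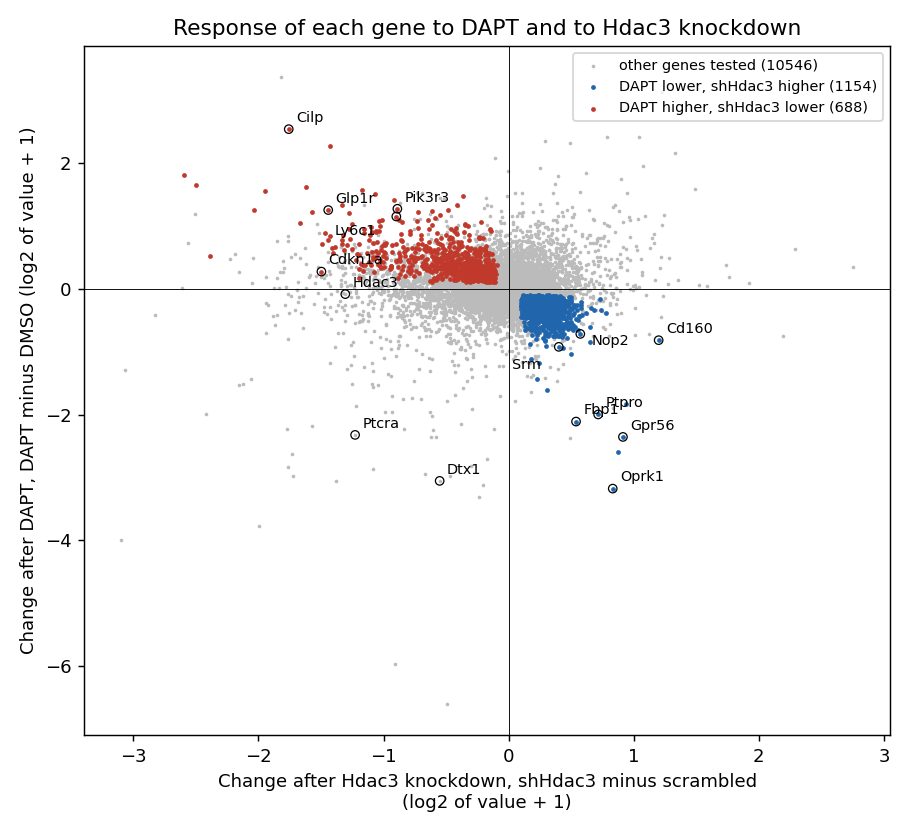
Each point is 1 of the 12388 genes tested, with its log2 change after Hdac3 knockdown on the x axis and after DAPT on the y axis. The 1154 genes lower with DAPT and higher with shHdac3 (blue) sit close to the origin apart from a few such as Oprk1 and Gpr56, and the 688 genes of the reverse pattern (red) spread further toward the upper left, for example Cilp.

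Genes that build ribosomes moved in opposite directions as a group. Of 45 ribosome biogenesis genes measured, 36 (80%) fell after DAPT and rose after knockdown, against 9.32% of all genes, and 0 did the reverse. The list's median change was -0.56 after DAPT and 0.29 after knockdown, against -0.0014 and 0.00079 over all genes tested. Of these 36 genes, 32 kept their place in the set under all 19 alternative settings tried, and across the settings the list's median difference ran from -0.86 to -0.72. They included genes of rRNA transcription, rRNA modification and the assembly of both ribosomal subunits.

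Nop2, an rRNA methyltransferase of the nucleolus, stood at 3894 and 3971 with DMSO and 2361 and 2431 with DAPT, and at 2495 and 2609 with the scrambled control against 3809 and 3781 with shHdac3. Its libraries were low with DAPT and high with the hairpin, and groups that do not overlap were a condition for naming it. The gene fell by 0.71 ± 0.041 after DAPT (adjusted p = 1.8e-12) and rose by 0.57 ± 0.041 after knockdown (adjusted p = 1.8e-10), and the difference of responses was -1.29 ± 0.059 (adjusted p = 4.1e-14). Utp20, a part of the small-subunit processome that folds and cuts pre-rRNA, stood at 3039 and 3162 with DMSO and 1999 and 1948 with DAPT, and at 1361 and 1369 with the scrambled control against 1882 and 2136 with shHdac3. It fell by 0.65 ± 0.052 after DAPT (adjusted p = 4.7e-10) and rose by 0.55 ± 0.052 after knockdown (adjusted p = 1.2e-08), again without overlap of treated and control libraries. Srm, the spermidine synthase of polyamine production, is in the list beside the ornithine decarboxylase Odc1 although neither is a ribosome assembly factor. Srm stood at 3017 and 2876 with DMSO and 1532 and 1580.2 with DAPT, and at 1531 and 1457 with the scrambled control against 2004 and 1940.5 with shHdac3, with a difference of -1.32 ± 0.067 (adjusted p = 2.1e-13).

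RNA polymerase I, which transcribes the rRNA genes, was represented by its largest subunits Polr1a (-0.56 and 0.20, log2 changes after DAPT and after knockdown) and Polr1b (-0.60 and 0.39), and by the initiation factor Rrn3 (-0.27 and 0.19). All 3 were in the opposite set. So were fibrillarin, Fbl (-0.50 and 0.20), with its partners Nop56 (-0.63 and 0.36) and Nop58 (-0.62 and 0.33) in the complex that methylates rRNA, and the pseudouridine synthase Dkc1 (-0.67 and 0.41). The nucleolar proteins nucleolin, Ncl (-0.49 and 0.29), and Mybbp1a (-0.79 and 0.46), and the large-subunit assembly factors Bop1 (-0.54 and 0.35) and Gnl3 (-0.71 and 0.44), moved the same way. Grwd1, another assembly factor, stood at 1704 and 1585 with DMSO and 1097 and 1072 with DAPT, and at 1013 and 941 with the scrambled control against 1392 and 1422 with shHdac3, a difference of -1.13 ± 0.077. The 45S pre-rRNA Rn45s changed by -0.39 ± 0.14 after DAPT (adjusted p = 0.035) and by -0.52 ± 0.14 after knockdown (adjusted p = 0.0052), and its difference of responses of 0.13 ± 0.20 was not called (adjusted p = 0.63), in libraries depleted of rRNA. Rn45s took 1.39% and 1.55% of the reads with DAPT and 2.39% and 1.48% with DMSO. On this share the DAPT and DMSO libraries overlapped, and only DMSO replicate 1 stood above both DAPT libraries.

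**Figure D2:**
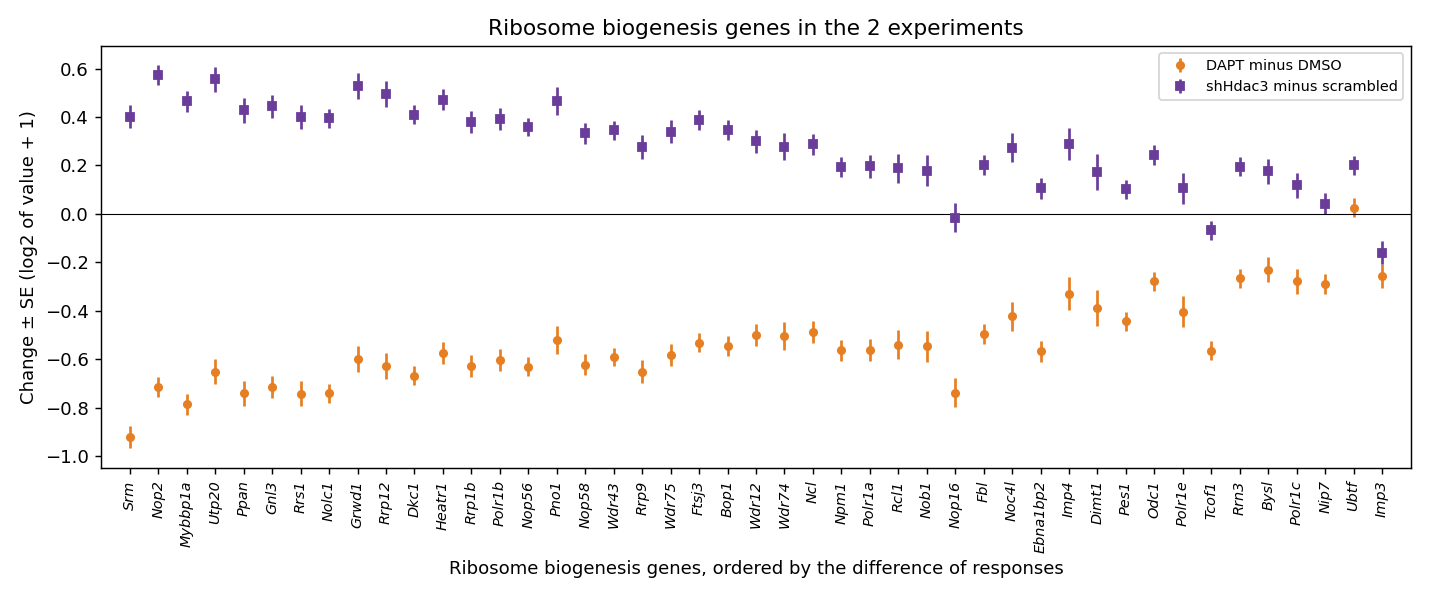
Log2 change ± SE of each of the 45 ribosome biogenesis genes measured, after DAPT (circles) and after Hdac3 knockdown (squares), ordered by the difference of responses. The circles lie below 0 for every gene except Ubtf, and the squares lie above 0 for all but 3 genes.

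The enzymes that charge tRNAs with amino acids followed the same pattern. Of 20 aminoacyl-tRNA synthetases measured, 17 (85%) fell after DAPT and rose after knockdown and 0 did the reverse, with list medians of -0.38 and 0.23. Nars, the asparaginyl-tRNA synthetase, stood at 11347 and 11681 with DMSO and 7613 and 7728 with DAPT, and at 4416 and 4333 with the scrambled control against 5472 and 5589.8 with shHdac3, a difference of -0.92 ± 0.054 (adjusted p = 2.7e-12). Its treated libraries were low in the one experiment and high in the other, apart from their controls in both. The leucyl enzyme Lars (-0.52 and 0.36, log2 changes after DAPT and after knockdown), the isoleucyl enzyme Iars (-0.51 and 0.28) and the phenylalanyl subunit Farsb (-0.51 and 0.23) were also in the set. Sars, the seryl enzyme, was an exception that fell in both experiments, by 0.27 ± 0.037 and by 0.35 ± 0.037 (named after its values were seen).

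Among genes of the amino acid response driven by the transcription factor ATF4, 9 of 29 fell with DAPT and rose with the hairpin and 2 did the reverse, of which 1 was left without any 1 of 3 libraries (DMSO replicate 2, shHdac3 replicate 1 or scrambled replicate 1). In the main fit the 9 and the 2 were 31.0% and 6.90% of the list, against 9.32% and 5.55% of all genes. The 9 included Atf4 itself (-0.31 and 0.28, log2 changes after DAPT and after knockdown), the neutral amino acid transporter gene Slc7a5 (-0.31 and 0.58), the cationic one Slc7a1 (-0.64 and 0.43), and Shmt2 (-0.61 and 0.44) and Mthfd2 (-0.52 and 0.41), mitochondrial enzymes of folate metabolism. Not all of the list moved in both experiments: Asns, the asparagine synthetase, changed by -0.88 ± 0.12 after DAPT (adjusted p = 2.1e-06) and by -0.11 ± 0.12 after knockdown (adjusted p = 0.47).

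Purine, pyrimidine and folate synthesis moved with the ribosome genes. Of 27 genes measured, 19 (70.4%) were lower with DAPT and higher with shHdac3 and 0 the reverse, with list medians of -0.37 and 0.22. Shmt1, the cytosolic serine hydroxymethyltransferase that feeds the folate pool, stood at 3143 and 3074 with DMSO and 2051 and 2058 with DAPT, and at 1561 and 1559 with the scrambled control against 2473 and 2429 with shHdac3. It fell by 0.60 ± 0.043 after DAPT (adjusted p = 6.6e-11) and rose by 0.65 ± 0.043 after knockdown (adjusted p = 3.3e-11). The purine enzymes Ppat (-0.55 and 0.44, log2 changes after DAPT and after knockdown), Gart (-0.70 and 0.38), Pfas (-0.47 and 0.35) and Atic (-0.62 and 0.31), the pyrimidine enzyme Cad (-0.56 and 0.37), Umps (-0.46 and 0.33), which acts after it, and the folate enzyme Mthfd1 (-0.67 and 0.34) were all in the set.

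DNA replication genes also moved in opposite directions, with a median change after DAPT nearer to 0 than that of the ribosome genes. Of 40 measured, 28 (70%) were lower with DAPT and higher with shHdac3 and 0 the reverse, with list medians of -0.18 and 0.28. Only 20 of these 28 kept their place in the set under all 19 alternative settings. All 6 subunits of the MCM helicase, which unwinds DNA at the fork, were in the set, from Mcm7 (-0.16 and 0.29, log2 changes after DAPT and after knockdown) to Mcm3 (-0.26 and 0.46). Mcm3 stood at 9999 and 9686 with DMSO and 8186 and 8236 with DAPT, and at 4634 and 4719.9 with the scrambled control against 6386 and 6459.9 with shHdac3, with no overlap of treated and control libraries. The licensing genes Orc1 (-0.37 and 0.45), Cdc6 (-0.19 and 0.46) and Cdt1 (-0.18 and 0.33) and the replisome gene Wdhd1 (-0.26 and 0.55) joined them. Mitosis and spindle genes did not. Of 42 measured, 21 were higher and 2 lower after knockdown, against 23.8% and 20.7% of all genes. After DAPT 5 changed each way, against 18.1% higher and 22% lower. The set lower with DAPT and higher with shHdac3 held 2 of them and the reverse one 0, against 9.32% and 5.55% of all genes. The 2 fell to 1 without DMSO replicate 1 and to 0 without DMSO replicate 2, DAPT replicate 1 or DAPT replicate 2.

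Protein synthesis and protein handling genes gave intermediate shares. Of 38 translation initiation factors 20 (52.6%) were in the set lowered by DAPT and raised by the hairpin, among them Eif1a (-0.75 and 0.37, log2 changes after DAPT and after knockdown), the scaffold Eif4g1 (-0.32 and 0.32), Eif5a (-0.50 and 0.36) and Eif2s1 (-0.37 and 0.28). Of 22 heat shock proteins and chaperonins 13 (59.1%) were, with the mitochondrial chaperonin Hspd1 (-0.74 and 0.35), the cytosolic chaperonin subunit Cct8 (-0.47 and 0.32), Hsph1 (-0.48 and 0.46) and Hsp90ab1 (-0.37 and 0.31). Hspd1 stood at 25542 and 26551 with DMSO and 15588 and 15499.9 with DAPT, and at 9085 and 9023 with the scrambled control against 11691 and 11405 with shHdac3, low in both DAPT libraries and high in both hairpin libraries. Of 38 proteasome subunits 21 (55.3%) were, for example Psmd7 (-0.35 and 0.30) and Psmc2 (-0.21 and 0.30), and 11 of the 21 kept their place in all 19 alternatives. Of 76 mitochondrial ribosomal proteins 22 (28.9%) were, for example Mrps18b (-0.62 and 0.35) and Mrps22 (-0.32 and 0.42), a count that went to 14 without scrambled replicate 2 and to 13 with DESeq2.

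**Figure D3:**
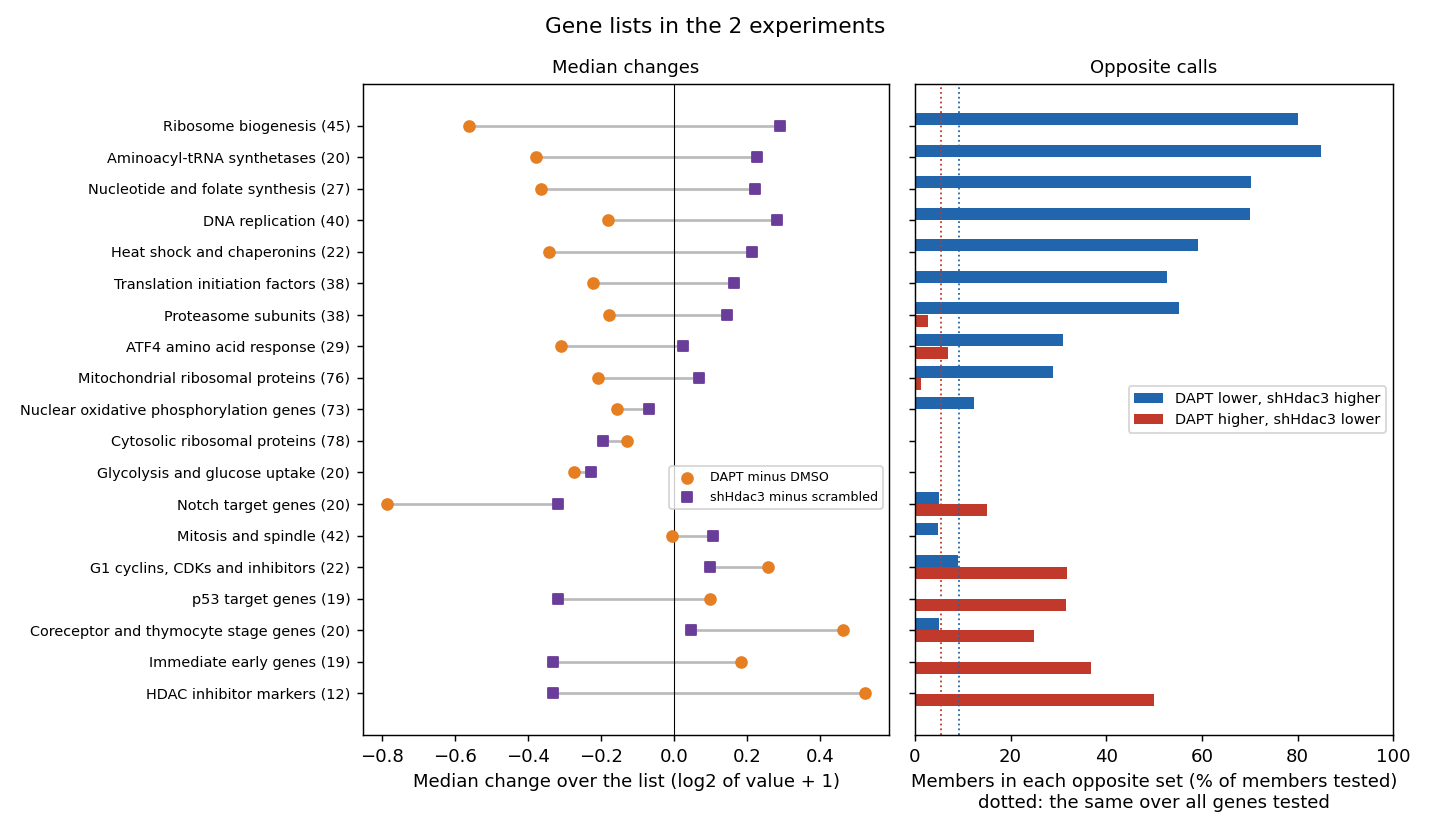
Left, the median log2 change over the measured members of each gene list after DAPT (circles) and after Hdac3 knockdown (squares), with the number measured in parentheses; right, the percentage of members in each opposite set, with dotted lines at the shares of all genes tested (9.32% and 5.55%). In the main fit, ribosome biogenesis, tRNA synthetases, nucleotide synthesis and DNA replication have 70% or more of their members lower with DAPT and higher with shHdac3.

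Not every growth gene took part, and genes of some functions fell in both experiments. Of all genes tested 22% fell after DAPT and 20.7% after knockdown. Of 78 cytosolic ribosomal proteins 46 fell after DAPT and 50 after knockdown, 0 were in either opposite set, and the list medians were -0.13 and -0.20. Of 20 glycolysis and glucose uptake genes 15 fell after DAPT and 13 after knockdown, and 0 were in an opposite set. Of 73 nuclear genes of oxidative phosphorylation 9 (12.3%) were in the set lowered by DAPT and raised by shHdac3, near the 9.32% of all genes, and the count was 4 without shHdac3 replicate 1 and 5 without scrambled replicate 2 or with upper-quartile factors. Of 20 Notch target genes 13 fell after DAPT and 14 after knockdown. In this list 1 gene (5%) was lower with DAPT and higher with the hairpin, against 9.32% of all genes. The reverse pattern was seen for 3 (15%), against 5.55%. None of these 4 kept its place in all 19 alternatives. Without scrambled replicate 2 the 3 fell to 0, without shHdac3 replicate 2 to 1, and without shHdac3 replicate 1 or scrambled replicate 1 the 1 fell to 0. Hes1, a repressor that Notch switches on, stood at 698 and 759.7 with DMSO and 207 and 229 with DAPT, and at 988 and 971 with the scrambled control against 613 and 533 with shHdac3, lower in all 4 treated libraries than in their controls.

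Myc itself moved in one experiment only by the test used. It stood at 9342 and 9047 with DMSO and 5061 and 5337 with DAPT, and at 4118 and 4291 with the scrambled control against 4475 and 4238 with shHdac3, a change of -0.82 ± 0.042 after DAPT (adjusted p = 1.8e-13) beside 0.051 ± 0.042 after knockdown (adjusted p = 0.34), where the ranges of the shHdac3 and scrambled libraries overlapped. The difference between the responses was -0.87 ± 0.059 (adjusted p = 3.7e-11). Mxd4 and Mxd1 encode repressors that compete with MYC for its partner MAX, and both rose with DAPT and fell with the hairpin. Mxd4 stood at 907 and 895 with DMSO and 2179.7 and 2117 with DAPT, and at 1099 and 1056 with the scrambled control against 830.0 and 716 with shHdac3, a difference of 1.74 ± 0.086 (adjusted p = 1.8e-13). Mxd1 stood at 339 and 334 with DMSO and 539.8 and 565 with DAPT, and at 317 and 289.9 with the scrambled control against 223 and 193 with shHdac3, a difference of 1.26 ± 0.13 (adjusted p = 4.5e-08). Treated and control libraries did not overlap for either gene. Max changed by -0.19 ± 0.045 after DAPT and by 0.16 ± 0.045 after knockdown, and when shHdac3 replicate 1 was left out the knockdown change was 0.13 and no longer called (adjusted p = 0.065). It was also 0.13 and not called when scrambled replicate 2 was left out (adjusted p = 0.062). Of the 10 genes of the MYC network measured, the other members were in neither opposite set.

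The E-box CACGTG, the sequence that MYC and MAX bind, was looked for in the promoters of these genes. Promoter windows of 300 bases, 250 before and 50 after each start, were taken from RefSeq on the GRCm38.p6 assembly and matched by symbol for 9770 of the 12388 genes, some with several starts. The letters CACGTG, which read the same on both strands, were in 173 of 1096 (15.8%) windows of the set lower with DAPT and higher with shHdac3. They were in 56 of 738 (7.59%) windows of the reverse set and in 1220 of 12344 (9.88%) of all genes tested. Among ribosome biogenesis genes 9 of 46 (19.6%) windows held them, and among tRNA synthetases 4 of 13 (30.8%). The letters TGGGAA, the core of RBPJ sites, on either strand, were at 23.9%, 22.4% and 22.9% of the windows of the same 3 groups. The letters TGATGNAA, bound by ATF4, were at 2.74%, 2.44% and 2.26% of the windows of these 3 groups. They were in 5 of 13 (38.5%) tRNA synthetase windows, which came from 13 of the 20 genes, and in 0 of 46 ribosome biogenesis windows. The letters TGANTCA, bound by the transcription factor AP-1, were at 3.92%, 5.83% and 4.97% of the windows of the 3 groups. TGGGAA was also in 15 of 37 (40.5%) windows of DNA replication genes, where the E-box was in 6 of 37 (16.2%). A match is a description of these letters and not a binding site. The coordinates are those of GRCm38.p6, while the authors' values rest on mm9, so no position was carried between them. Shown here are the 250 bases before the start for 2 ribosome genes and 2 tRNA synthetases of the set that hold the E-box, which is in capitals, written in the gene's direction.
Nop2, chr6:125131633-125131882, plus strand: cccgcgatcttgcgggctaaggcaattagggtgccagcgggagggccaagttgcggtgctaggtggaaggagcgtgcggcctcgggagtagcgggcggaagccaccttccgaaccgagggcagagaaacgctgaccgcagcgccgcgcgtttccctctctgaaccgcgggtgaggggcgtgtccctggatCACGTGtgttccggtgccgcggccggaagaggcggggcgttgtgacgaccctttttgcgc
Rrn3, chr16:13780449-13780698, plus strand: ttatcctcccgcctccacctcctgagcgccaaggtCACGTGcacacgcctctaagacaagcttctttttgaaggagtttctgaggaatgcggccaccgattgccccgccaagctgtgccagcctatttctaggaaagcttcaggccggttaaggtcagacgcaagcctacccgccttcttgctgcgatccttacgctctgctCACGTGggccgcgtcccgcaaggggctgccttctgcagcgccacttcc
Iars, chr13:49681880-49682129, plus strand: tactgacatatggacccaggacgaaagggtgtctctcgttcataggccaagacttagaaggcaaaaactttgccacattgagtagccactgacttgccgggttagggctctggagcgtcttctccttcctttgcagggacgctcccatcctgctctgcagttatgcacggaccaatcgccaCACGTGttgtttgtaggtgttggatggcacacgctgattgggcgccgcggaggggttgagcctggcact
Farsb, chr1:78488898-78489147, minus strand: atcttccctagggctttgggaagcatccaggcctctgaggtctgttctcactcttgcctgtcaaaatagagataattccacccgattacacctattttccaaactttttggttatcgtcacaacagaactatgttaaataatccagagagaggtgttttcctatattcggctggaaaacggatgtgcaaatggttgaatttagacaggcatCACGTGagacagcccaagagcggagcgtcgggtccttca

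In these windows the E-box began 60 bases before the start of Nop2, 215 and 48 before that of Rrn3, 69 before that of Iars and 39 before that of Farsb. Rrn3 stood at 5879.8 and 5959 with DMSO and 5017 and 4836 with DAPT, and at 3087 and 3092 with the scrambled control against 3589.5 and 3484 with shHdac3, a difference of -0.46 ± 0.056 (adjusted p = 3.8e-07). Iars stood at 5256 and 5471 with DMSO and 3838 and 3711 with DAPT, and at 2636 and 2583 with the scrambled control against 3229.5 and 3108 with shHdac3, a difference of -0.79 ± 0.058 (adjusted p = 1.6e-10). Farsb stood at 3720.1 and 4047 with DMSO and 2825 and 2635 with DAPT, and at 1589 and 1738 with the scrambled control against 1932 and 1976 with shHdac3, a difference of -0.74 ± 0.073 (adjusted p = 1.6e-08). For these genes, as for Nop2, both DAPT libraries were below both DMSO libraries and both shHdac3 libraries above both scrambled ones.

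Genes were also ranked by the smaller of their 2 changes, and the 12 highest among those lowered by DAPT included the biosynthesis genes Nop2, Utp20, Grwd1 and Shmt1. The largest differences in this group of 12 were those of Oprk1, Gpr56, Ptpro and Fbp1. Oprk1, the κ-opioid receptor, stood at 3895 and 4236 with DMSO and 462 and 435 with DAPT, and at 2140.4 and 2251 with the scrambled control against 3912 and 3904 with shHdac3. It fell by 3.18 ± 0.050 after DAPT (adjusted p = 2.4e-23) and rose by 0.83 ± 0.050 after knockdown (adjusted p = 6.7e-12), a difference of -4.01 ± 0.070 (adjusted p = 6.4e-22). DAPT left it 9.05-fold lower and the hairpin 1.78-fold higher than in the controls. Gpr56, an adhesion receptor named Adgrg1 in RefSeq, stood at 1405 and 1353 with DMSO and 258 and 280.3 with DAPT, and at 986 and 1009.6 with the scrambled control against 1833 and 1929 with shHdac3. It fell by 2.35 ± 0.060 after DAPT (adjusted p = 1.6e-19) and rose by 0.91 ± 0.060 after knockdown (adjusted p = 3.4e-11). These genes, too, were named on condition that treated and control libraries did not overlap.

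Fbp1, the fructose-1,6-bisphosphatase of gluconeogenesis, stood at 2289.9 and 2315 with DMSO and 532 and 533 with DAPT, and at 2103 and 1998 with the scrambled control against 3132 and 2831 with shHdac3. It fell by 2.11 ± 0.051 after DAPT (adjusted p = 8.0e-20) and rose by 0.54 ± 0.051 after knockdown (adjusted p = 1.7e-08). Ptpro, a receptor-type tyrosine phosphatase, stood at 153 and 155 with DMSO and 39.6 and 36.1 with DAPT, and at 124 and 117 with the scrambled control against 205 and 192 with shHdac3, a difference of -2.71 ± 0.21 (adjusted p = 2.1e-10). In both genes the DAPT libraries were far below and the hairpin libraries above their controls. Cd160, an immunoglobulin-family receptor of lymphocytes, had its larger change after knockdown. It stood at 322 and 366 with DMSO and 203 and 187 with DAPT, and at 288 and 267 with the scrambled control against 646 and 630.1 with shHdac3, 1.76-fold lower with DAPT and 2.30-fold higher with the hairpin. The tetraspanin gene Tspan2 (-0.84 and 0.65, log2 changes after DAPT and after knockdown), the inflammasome sensor gene Nlrp1a (-0.64 and 0.52) and Heatr3 (-0.55 and 0.50) were the other members of the 12. Cdk6, a kinase that drives the G1 phase, stood at 1600.5 and 1762 with DMSO and 1292 and 1271 with DAPT, and at 1408 and 1277 with the scrambled control against 2292 and 2304 with shHdac3, and the lymphocyte receptor gene Slamf6 changed by -1.18 ± 0.066 and 0.24 ± 0.066.

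**Figure D4:**
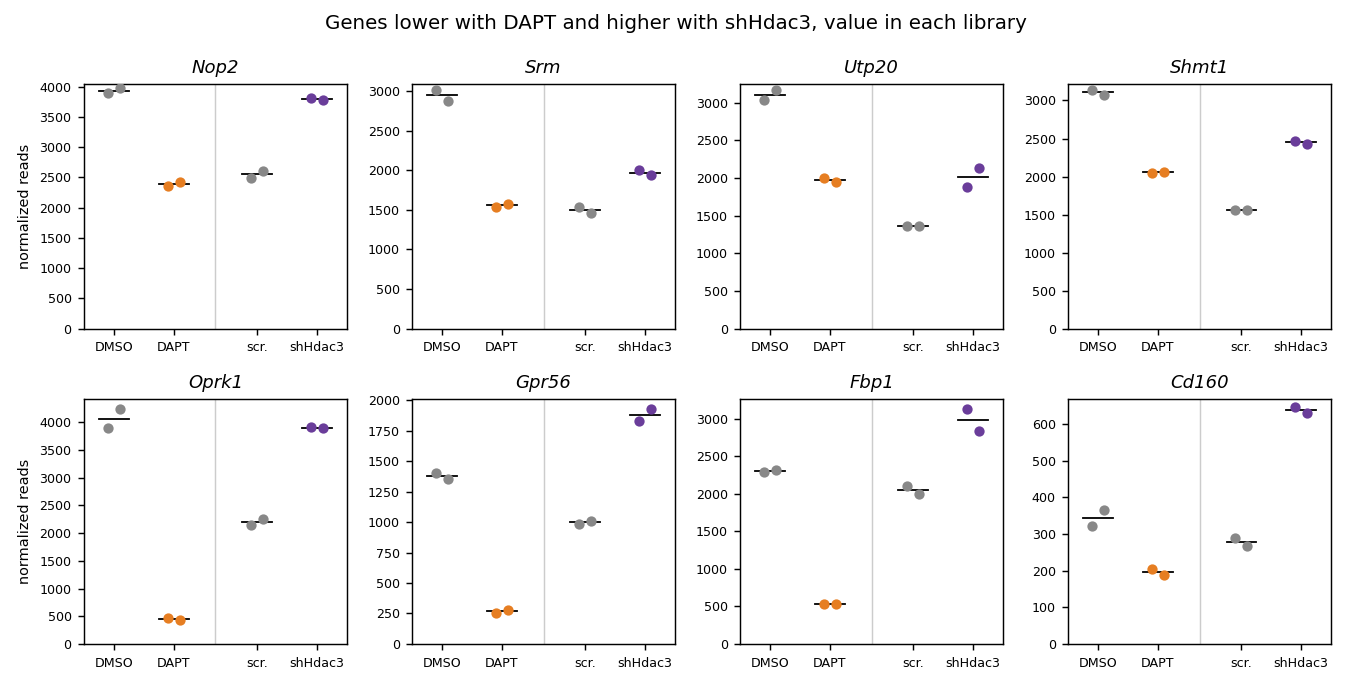
Normalized reads in each library for 8 genes lower with DAPT and higher with shHdac3, with dots for single libraries and lines for group means; each y axis starts at 0 and the 2 experiments, parted by the grey line, were normalized separately. In every panel the orange DAPT dots are below the DMSO dots and the purple shHdac3 dots above the scrambled ones, with the widest gap after DAPT in Oprk1.

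In the reverse direction, higher with DAPT and lower with shHdac3, the genes ranked highest by the smaller of their changes included receptor, matrix and surface protein genes. Cilp, which encodes a cartilage matrix protein, stood at 69.8 and 72.4 with DMSO and 421 and 418 with DAPT, and at 179.6 and 178 with the scrambled control against 60.7 and 44.9 with shHdac3, a difference of 4.30 ± 0.21 (adjusted p = 1.1e-13). For Cilp the DAPT libraries were above and the shHdac3 libraries below every control of their experiment. Glp1r, the receptor of glucagon-like peptide 1, was a low-level gene at 70.8 and 52.9 with DMSO and 164 and 133 with DAPT, and at 84.7 and 90.0 with the scrambled control against 28.8 and 34.4 with shHdac3, with a difference of 2.70 ± 0.27. The interleukin 6 receptor chain gene Il6ra stood at 41.0 and 47.0 with DMSO and 237 and 197 with DAPT, and at 22.5 and 22.7 with the scrambled control against 11.3 and 5.22 with shHdac3, a difference of 3.70 ± 0.40 (adjusted p = 7.4e-08). Il6ra was named from the cytokine receptor list and not from this ranking, which asked for a mean of 50 in each experiment. Its values in the hairpin experiment lay near the filter of 10.

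The adjacent genes Ly6a, Ly6c1 and Ly6c2, which encode small surface proteins anchored to the membrane by a lipid, all rose with DAPT and fell with the hairpin. Ly6c1 stood at 1619 and 1577 with DMSO and 3617 and 3499 with DAPT, and at 2134 and 2047 with the scrambled control against 1126 and 1116 with shHdac3, a difference of 2.05 ± 0.064 (adjusted p = 4.1e-17). Ly6c2 and Ly6a had differences of 1.93 ± 0.091 (adjusted p = 8.4e-14) and 1.67 ± 0.077 (adjusted p = 5.6e-14). Ly6c1 and Ly6c2 are closely similar copies that can share reads, so their separate values are uncertain. Another gene of the cluster, 2010109I03Rik (Ly6m in RefSeq), changed the other way, by -0.58 ± 0.12 after DAPT and 0.52 ± 0.12 after knockdown, and was named after its values were seen. Pik3r3, a regulatory subunit of phosphoinositide 3-kinase, stood at 1358 and 1375 with DMSO and 3338 and 3288 with DAPT, and at 1179 and 1284 with the scrambled control against 637 and 692 with shHdac3. It rose by 1.28 ± 0.054 after DAPT (adjusted p = 5.1e-15) and fell by 0.89 ± 0.054 after knockdown (adjusted p = 9.5e-12). Spon1, a secreted matrix protein gene, stood at 1226 and 1189 with DMSO and 2228 and 2223 with DAPT, and at 956 and 1021 with the scrambled control against 516 and 576 with shHdac3, 1.84-fold higher with DAPT and 1.81-fold lower with the hairpin. The actin-binding protein genes Dbn1 (0.88 and -1.46, log2 changes after DAPT and after knockdown) and Lsp1 (0.91 and -1.06), Dirc2 (0.92 and -1.06), Trim16 (0.93 and -0.79) and the phosphatase gene Ppm1j (1.03 and -1.26) ranked in the same group. The DAPT call of Ppm1j was lost without DAPT replicate 1 (0.74, adjusted p = 0.054).

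**Figure D5:**
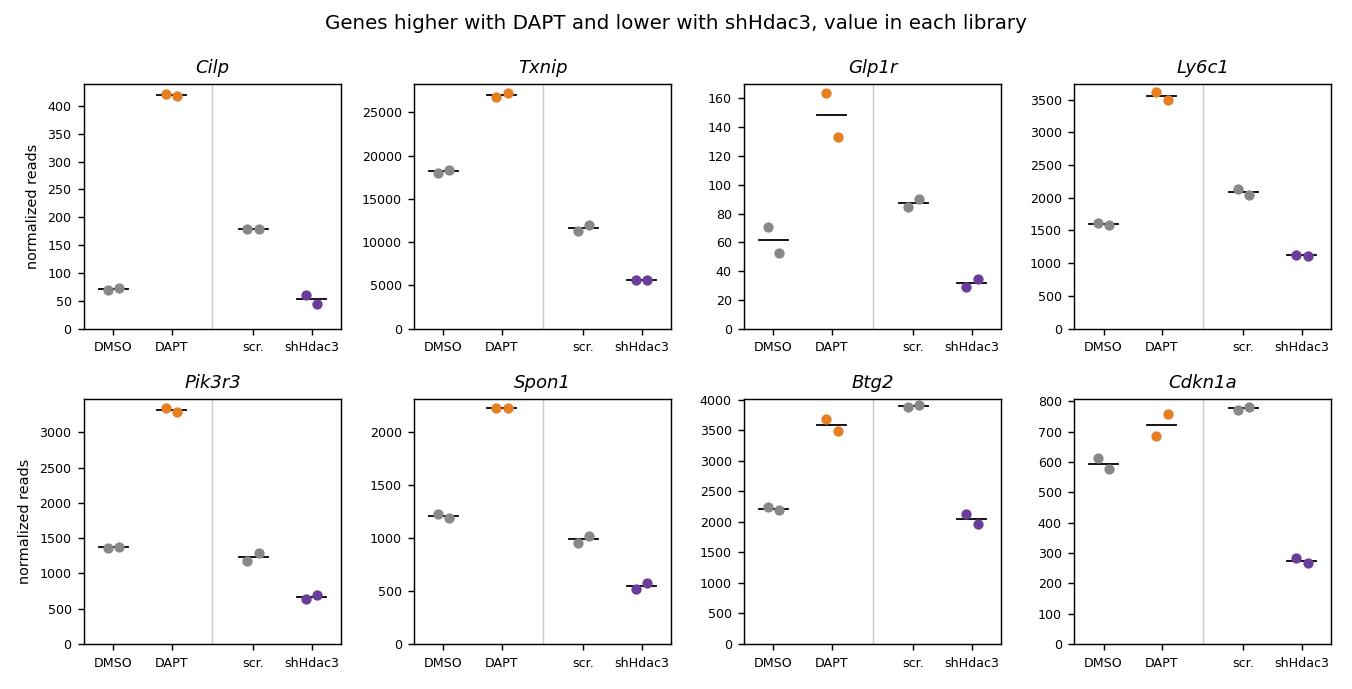
Normalized reads in each library for 8 genes higher with DAPT and lower with shHdac3, drawn as dots with lines at the group means, each y axis from 0 and the separately normalized experiments parted by a grey line. The orange DAPT dots are above the DMSO dots and the purple shHdac3 dots below the scrambled dots in all 8 panels, with the smallest rise after DAPT in Cdkn1a.

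Genes that restrain the cell cycle were among those raised by DAPT and lowered by the hairpin. Of 19 p53 target genes 6 (31.6%) had this pattern and 0 the reverse, against 5.55% and 9.32% of all genes. The list moved mainly after knockdown, where 11 fell and 1 rose, against 20.7% and 23.8% of all genes. After DAPT 6 rose and 4 fell, against 18.1% and 22%. Cdkn1a, which encodes the cyclin-dependent kinase inhibitor p21, stood at 612 and 577 with DMSO and 684 and 759 with DAPT, and at 773 and 782 with the scrambled control against 282 and 268 with shHdac3. Its knockdown change was -1.50 ± 0.073, and its DAPT change of 0.28 ± 0.073 lost its call without DAPT replicate 2 (0.20, adjusted p = 0.11) or DMSO replicate 2 (0.23, adjusted p = 0.054). Btg2, an antiproliferative gene, stood at 2247 and 2189 with DMSO and 3691 and 3498 with DAPT, and at 3877 and 3920.2 with the scrambled control against 2125 and 1971 with shHdac3, a difference of 1.63 ± 0.064 (adjusted p = 2.9e-15). The p53 targets Trp53inp1 (0.78 and -0.32, log2 changes after DAPT and after knockdown) and Sesn1 (0.29 and -0.23) were also in the set. Of 22 G1 genes 7 had the pattern and 2 the reverse, the latter count falling to 1 without DAPT replicate 1, DMSO replicate 1 or DMSO replicate 2. These counts were 31.8% and 9.09% of the list, against 5.55% and 9.32% of all genes, so the reverse count was near the share of all genes. The 7 were not all of one function: the inhibitor gene Cdkn1b (0.34 and -0.49) and the cyclin gene Ccnd2 (0.37 and -0.84), which drives G1, moved together.

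Immediate early genes, which cells switch on within minutes of a signal, were higher with DAPT and lower with the hairpin in 7 of 19 cases (36.8%). None were in the reverse set. The shares of all genes were 5.55% and 9.32%. In the knockdown 15 of the 19 fell and 2 rose, against 20.7% and 23.8% of all genes. After DAPT 9 rose and 0 fell, against 18.1% and 22%. Jun, a subunit of the AP-1 transcription factor, stood at 832 and 788 with DMSO and 1175 and 1182 with DAPT, and at 393 and 462 with the scrambled control against 337 and 341 with shHdac3, a difference of 0.87 ± 0.11 (adjusted p = 3.9e-07). Klf10 (0.37 and -0.33, log2 changes after DAPT and after knockdown) was in the set as well. Of the 7, Jun, Klf10 and Btg2 kept their place under all 19 alternatives, and the count was 4 with DESeq2. Of the 19 NF-κB genes measured 3 (15.8%) were in the set, against 5.55% of all genes, and 1 was in the reverse one, a call lost without any 1 of the 4 libraries of the DAPT experiment. The reverse set held 9.32% of all genes. In the whole list 7 rose and 2 fell after DAPT, against 18.1% and 22% of all genes tested. After knockdown 5 rose and 7 fell, against 23.8% and 20.7%. The 3 were the inhibitor gene Nfkbia (0.56 and -0.37), its relative Nfkbiz (0.77 and -0.58) and the ubiquitin-editing enzyme gene Tnfaip3 (0.64 and -0.32). Nfkbia stood at 2148 and 2149.9 with DMSO and 3083 and 3268 with DAPT, and at 1795 and 1761 with the scrambled control against 1405 and 1345 with shHdac3, and the treated libraries lay apart from their controls.

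Genes known to respond to histone deacetylase inhibitors in other cells also differed between the experiments, and 12 of them were measured. After knockdown 8 fell and 3 rose, against 20.7% and 23.8% of all genes tested. After DAPT 8 rose and 1 fell, against 18.1% and 22%. The set raised by DAPT and lowered by the hairpin held 6 (50%) and the reverse set 0, against 5.55% and 9.32% of all genes. Txnip, an inhibitor of thioredoxin and glucose uptake, stood at 18012 and 18324 with DMSO and 26773 and 27239 with DAPT, and at 11286 and 11933 with the scrambled control against 5603 and 5652 with shHdac3, a difference of 1.62 ± 0.056 (adjusted p = 2.0e-16). Gsn, the actin-severing protein gelsolin, stood at 2377 and 2335 with DMSO and 6634 and 6451 with DAPT, and at 4691 and 4769.9 with the scrambled control against 3610.1 and 3741 with shHdac3, a difference of 1.84 ± 0.056 (adjusted p = 2.7e-17). The linker histone gene H1f0 (0.54 and -0.19, log2 changes after DAPT and after knockdown) had the same pattern. Clu, another marker, fell in both experiments (-1.53 and -2.16). With the histone deacetylase inhibitor apicidin in the same cells, 6 of the 12 rose and 2 fell, against 18.3% and 20.2% of all genes.

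Some coreceptor and stage genes of thymocytes were raised by DAPT and lowered by the hairpin, while the list as a group moved mainly after DAPT. Of the 20, 16 rose and 4 fell after DAPT, against 18.1% and 22% of all genes. After knockdown 5 rose and 7 fell, against 23.8% and 20.7%. Of the 20 coreceptor and stage genes 5 (25%) were higher with DAPT and lower with shHdac3, against 5.55% of all genes. The reverse held for 1, Slamf6, against 9.32%. Cd4 stood at 7813 and 7941 with DMSO and 10781 and 10935 with DAPT, and at 4929.9 and 4927 with the scrambled control against 2159.9 and 2060.4 with shHdac3, a difference of 1.69 ± 0.055 (adjusted p = 7.9e-17). Cd8a moved less in the knockdown, standing at 2835 and 2778 with DMSO and 3895 and 3830.3 with DAPT, and at 1925 and 2015 with the scrambled control against 1699 and 1760.0 with shHdac3, a difference of 0.65 ± 0.061 (adjusted p = 9.0e-09). For both coreceptor genes the groups did not overlap in either experiment. Cd27 (0.57 and -0.16, log2 changes after DAPT and after knockdown), a receptor of the TNF family, was also in the set. Of 38 T cell transcription factor genes 5 (13.2%) were in it, among them the repressor gene Gfi1 (0.36 and -0.38) under all 19 alternatives, and the count was 3 without DAPT replicate 1 or scrambled replicate 2 and with DESeq2. Of the 38, 24 rose and 4 fell after DAPT, against 18.1% and 22% of all genes, and 14 rose and 9 fell after knockdown, against 23.8% and 20.7%.

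Some of the largest differences of responses came from genes that moved in only 1 experiment by the test used and were in neither opposite set. Dnm1, which encodes dynamin 1, stood at 112 and 123 with DMSO and 105 and 133 with DAPT, and at 315 and 298 with the scrambled control against 41.1 and 59.5 with shHdac3, with a change of 0.0084 ± 0.17 after DAPT (adjusted p = 0.97) and -2.61 ± 0.17 after knockdown. Cdh1, which encodes E-cadherin, stood at 575 and 579.6 with DMSO and 64.1 and 50.9 with DAPT, and at 367 and 338 with the scrambled control against 309 and 289 with shHdac3, with changes of -3.31 ± 0.11 and -0.24 ± 0.11 (adjusted p = 0.089). Spsb4 had changes of -3.12 ± 0.14 and -0.20 ± 0.14 (adjusted p = 0.25). These 3 genes had differences of 2.62 ± 0.24, -3.08 ± 0.16 and -2.92 ± 0.20. The difference was 1 or more in size for 547 positive genes (4.42% of genes tested) and 160 negative ones (1.29%).

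The 4 libraries of the apicidin experiment (0.01 µg/ml for 24 h, or DMSO) did not enter the choice of the opposite sets and share no control with them. Apicidin inhibits class I histone deacetylases, HDAC3 among them. Of 12204 genes tested there, 2239 rose (18.3%) and 2467 fell (20.2%). Of the 688 genes raised by DAPT and lowered by the hairpin 684 were tested, and 151 rose (22.1%) and 215 fell (31.4%) with apicidin, with a median change of -0.039. Of the 1154 genes lowered by DAPT and raised by the hairpin 213 rose (18.5%) and 241 fell (20.9%), near the shares of all genes, with a median of -0.0027. In ribosome biogenesis 1 of 45 genes rose and 18 fell with apicidin (median -0.080), beside 37 that rose and 1 that fell with the hairpin. Of the 20 tRNA synthetases 1 rose and 1 fell with apicidin, and of 40 DNA replication genes 5 rose and 16 fell. Among single genes, Oprk1 stood at 420.1 and 424 with apicidin against 1598 and 1659.7, a change of -1.95 ± 0.058 (adjusted p = 1.2e-13). The difference between the apicidin and knockdown changes was not tested here.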

How the data were processed

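Total RNA was sequenced after a stranded Ribo-Zero kit, per the labels' protocols. The submitters' processing notes name FastQC, TopHat, Bowtie2, DESeq2 and the mm9 build, with no versions; the read counter, the annotation and whether counting used strand are, here, not given in the sources used. Reads of overlapping genes on opposite strands cannot be told apart. The deposited tables, 1 per experiment, hold normalized signal per gene (read counts divided by size factors by the authors), with the authors' log2 fold change, its error and test statistic (scores), p-value and adjusted p-value per gene. Every value was a whole multiple of its library's step within 1e-06, so reads were recovered for the count tests and depths. Genes at 10 or more in at least 2 libraries of each table were kept. One limma-trend fit (limma 3.58.1, R 4.3.3) on log2(value + 1) of the 8 libraries gave the DAPT change, the knockdown change and their difference, each Benjamini-Hochberg adjusted over 12388 genes at 0.05. Fold changes on that scale understate low genes. Opposite means all 3 called, with opposite signs. The authors normalized each table on its own, and levels are set side by side only inside a table. The apicidin table, used after the opposite sets were seen, got its own limma fit. Genes named are the 12 per opposite set with the largest smaller change (mean of 50 or more in each table, replicates apart from controls, curated symbol), the 6 largest differences each way, Hdac3, Notch targets, and from each list up to 4 members with the largest difference and members of an opposite set. Others are marked as neighbours, marker genes, rRNA or chosen after their values were seen. Members and the 52 lists were chosen with earlier results of these data known. Alternatives were pseudocounts of 0.5 and 5, other filters and scaling factors, edgeR 4.0.16 and DESeq2 1.42.0 on recovered reads, separate fits, a replicate block and leaving out each library. The method was tested on simulated data. Results for some genes are not reported here.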

Additional observations from a re-analysis of the deposited data

How the results depend on the processing

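The 5863 genes called for the difference, the 688 higher with DAPT and lower with shHdac3, and the 1154 of the reverse pattern stayed within 1.5 times these counts under pseudocounts, filters, TMM, edgeR and separate fits. With DESeq2 the set higher with DAPT was 434. Asking for a difference of 1 or more left 707 genes, and opposite changes of 0.5 or more each left 135 and 14. The adjusted p-values in the authors' deposited tables, an alternative chosen after seeing the data, gave 327 and 659 genes, of which 315 and 658 were in the sets above. The causes were not tested. Upper-quartile factors gave 1004 and 841 genes, and a positive share of 59.6% against 46.8%. Leaving out each library in turn gave 5019 to 5733 genes for the difference, 511 to 671 higher with DAPT and lower with the hairpin, and 937 to 1113 of the reverse. A lone library was assumed to vary like the other groups. With the replicate number as a block the counts were 6048, 745 and 1211. Same-numbered libraries deviated together with a correlation of 0.042 in the DAPT experiment and 0.010 in the hairpin one. These correlations show little shared deviation, but with 2 libraries a group they cannot tell whether the samples were paired. No called change of a gene turned its sign, but under upper-quartile factors positive differences outnumbered negative ones and the set higher with DAPT outnumbered the reverse set, the other way round from the main counts. Of the values for single genes and lists, 27515 kept their call, 627 lost it, 51 gained it and 280 counts moved by over 1.5 times. Precision is limited by 2 libraries a group, and by depth for genes near the filter of 10.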

Other observations

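For the counts given here, DAPT raised 18.1% and lowered 22% of all genes tested, the hairpin raised 23.8% and lowered 20.7%, and the opposite sets held 5.55% (higher with DAPT) and 9.32% (lower with DAPT). Of 25 lysosome and autophagy genes 14 rose and 0 fell after DAPT, and 5 rose and 4 fell after knockdown, and 3 were higher with DAPT and lower with shHdac3, among them the autophagosome gene Gabarap (0.30 and -0.27, log2 changes after DAPT and after knockdown). Of 32 interferon response genes 9 rose and 4 fell after DAPT, and 3 rose and 11 fell after knockdown, and 4 were in that set, for example the antiviral gene Bst2 (0.31 and -0.26), a count that was 2 without DMSO replicate 1. Of 24 cytokine receptor genes 18 rose and 3 fell after DAPT, and 10 rose and 5 fell after knockdown. Besides Il6ra, the shared chain gene Il6st (0.29 and -0.21) was in that set, and the interleukin 12 receptor gene Il12rb2 (-0.58 and 0.45) had the reverse pattern. Genes of the hypoxia response moved mostly one way: of 16, 2 rose and 8 fell after DAPT, and 0 rose and 13 fell after knockdown. Of 15 circadian clock genes 4 rose and 2 fell after DAPT, and 0 rose and 8 fell after knockdown. Of 21 genes of the TCA cycle 0 rose and 15 fell after DAPT, and 7 rose and 1 fell after knockdown, and 4 were lower with DAPT and higher with shHdac3, or 2 without scrambled replicate 2 and with upper-quartile factors. Of 22 Polycomb genes 3 were lower with DAPT and higher with the hairpin and 2 the reverse, the latter being 1 without shHdac3 replicate 2 or scrambled replicate 2. The members Eed (-0.21 and 0.25) and Mtf2 (-0.24 and 0.18) of the repressive complex that methylates histone H3 were among the former, and Cbx7 (0.36 and -0.29) among the latter.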
